A study of Nasonia vitripennis and Nasonia giraulti with 12 samples.

Results

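A set of 63 genes, out of 24337 in the deposited table, was read at moderate levels in both sexes of the jewel wasp Nasonia vitripennis and was nearly without reads in both sexes of its close relative Nasonia giraulti. The members were chosen on these libraries. A gene entered when its mean was at least 5 CPM (the count divided by the library total, times 1000000) in both N. vitripennis sexes. On the scale log2(mean CPM + 0.5), it also had to lie at least 3.5 units lower in N. giraulti than in N. vitripennis in females and again in males, and the sexes of N. vitripennis had to differ by less than 2 units. Of the 24337 genes, 8533 met the first condition.

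The libraries were whole-body RNA of adults 24 h after eclosion, each from a pool of 10 animals. The groups were N. giraulti females and N. giraulti males of strain R16A, and N. vitripennis females and N. vitripennis males of strain AsymCX, with 3 libraries each, described in the labels as independent batches. Each species is represented by a single strain, so strain and species cannot be told apart. No treatment was applied, and all animals shared stage and tissue. R16A is known as a strain that carries an N. giraulti nuclear genome in N. vitripennis cytoplasm, and AsymCX is a laboratory strain of N. vitripennis.

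Nasonia are small parasitoid wasps that lay their eggs on fly pupae. Females are diploid and develop from fertilised eggs, males are haploid and develop from unfertilised eggs, and the species can be crossed in the laboratory once their Wolbachia infections are removed. Closely related insect species are known to differ both in which genes their genomes carry and in how strongly shared genes are transcribed, and rapidly changing gene families are often arranged as neighbouring copies. The files give each gene only an identifier, and the name table used here matched 0 of them, so no function is stated for any gene below.

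Library totals ran from 23763596 to 51374887 counts, so that a floor of 3 counts in a single library stood for 0.0584 to 0.126 CPM. All 63 members passed the filter on low counts, as their N. vitripennis level guaranteed. Neither the genome build nor the annotation is given in the sources used here, and it is not stated against which reference the reads of each species were aligned. Fewer transcripts and fewer aligned reads in N. giraulti cannot be told apart. CPM is not per length, so the order of the members by CPM is an order of reads, not of transcripts.

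Together the 63 genes took 35.5, 56.1 and 45.6 CPM in the N. giraulti female libraries numbered 1 to 3 and 110.8, 36.5 and 47.1 CPM in those of the males, against 2130, 1637 and 2087 CPM in N. vitripennis females and 3187, 2934 and 2937 CPM in N. vitripennis males. The summed level thus averaged 45.7 CPM ± 10.3 (SD, n = 3) in N. giraulti females and 1951 CPM ± 273 in N. vitripennis females. In males it averaged 64.8 CPM ± 40.2 in N. giraulti and 3019 CPM ± 146 in N. vitripennis. No library of either sex came near the range of the other species, which the choice of the members fixed.

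A single gene lifted the N. giraulti male library numbered 1. Nasvi2EG006310, picked out here because of its values, held 51.7% of the member reads there. In males it stood at 57.3, 1.25 and 0.340 CPM in N. giraulti, against 329, 214 and 386 CPM in N. vitripennis. In females it stood at 2.05, 6.25 and 7.50 CPM in N. giraulti, against 60.5, 49.6 and 246 CPM in N. vitripennis. Its replicates were spread widely in both species, and it was the 1 member whose N. giraulti and N. vitripennis libraries overlapped when both sexes were pooled. Without it the summed level was 40.4 CPM ± 8.45 (SD, n = 3) in N. giraulti females and 45.2 CPM ± 9.25 in their males, against 1833 CPM ± 241 in N. vitripennis females and 2710 CPM ± 154 in N. vitripennis males.

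**Figure D1:**
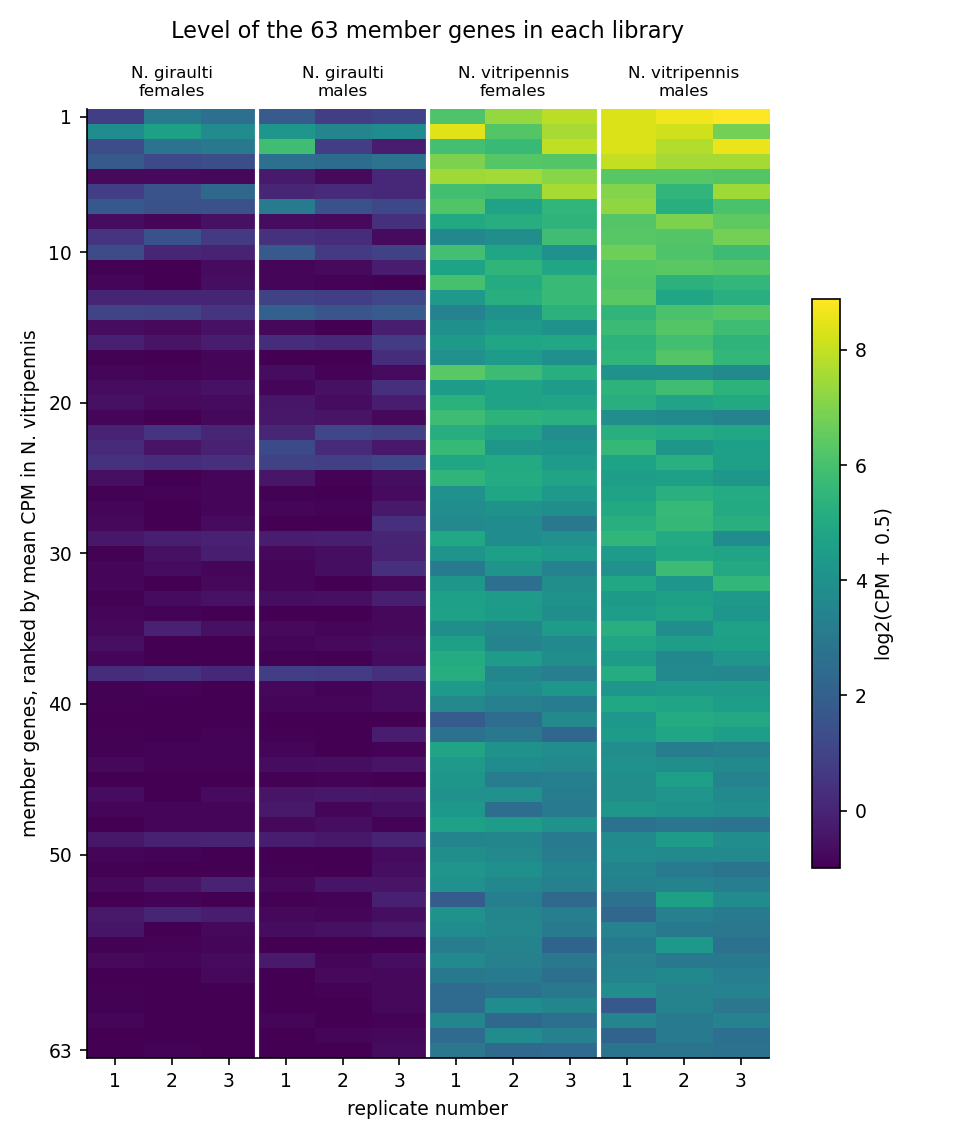
Level of each of the 63 member genes (rows, ranked by mean CPM over the 6 N. vitripennis libraries) in each of the 12 libraries (columns, replicate number within each group), as log2(CPM + 0.5). The N. giraulti columns are dark in nearly all rows, and the brightest N. giraulti cells lie among the members with the most reads in N. vitripennis.

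The label of near absence held for most members and not for all. In N. giraulti, 50 members stood at no more than 1 CPM in both sexes, and 13 were above 1 CPM in at least a single sex. These 13 supplied 88.9% of the member reads in N. giraulti. The highest N. giraulti means were 17.0 CPM in females and 19.6 CPM in males. Over all 63 genes the median of the group means was 0.0703 CPM in N. giraulti females and 0.172 CPM in their males, against 18.6 CPM in N. vitripennis females and 25.2 CPM in N. vitripennis males.

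Counted in reads, the 6 N. giraulti libraries together held a median of 27 reads per member, from 0 to 3200, while the 6 N. vitripennis libraries held a median of 4455, from 1237 to 52522. In the N. giraulti sum, 19 members had at most 10 reads, 48 had at most 100, and 1 had 0. The N. giraulti mean, as a share of the N. vitripennis mean of the same sex, had a median of 0.421% in females and 0.682% in males. It was under 1% for 42 members in females and 38 in males, and its highest values were 8.28% and 6.34%.

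These values chose the members and are a description. On the log2(mean CPM + 0.5) scale the difference of N. giraulti minus N. vitripennis had a median of -4.57 in females, from -8.14 to -3.53, and a median of -4.93 in males, from -7.38 to -3.55. Over the 8533 genes that reached 5 CPM in N. vitripennis females and males the median was -0.06 in females and -0.21 in males. The added 0.5 CPM bounds the difference for genes at 0, so the scale understates it for the members with fewest reads. Every N. giraulti library lay below every N. vitripennis library for 62 of the 63 members, a pattern found in 7.29% of all genes tested. In a fit over all genes (edgeR quasi-likelihood test, adjusted p under 0.05) all 63 were called lower in N. giraulti females, beside 18.4% of all genes tested, and 62 in N. giraulti males, beside 16.6%. The rule used these contrasts, so nothing is read from these counts.

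The threshold did not fall in a gap. The member nearest to it in females differed by 3.53 log2 units and the nearest gene outside by 3.495, and in males the values were 3.55 and 3.48. The female threshold alone left out 40 genes and the male threshold alone left out 15. The cap on the sex difference left out another 11, the nearest of them at 2.01 log2 units against 1.94 for the nearest member.

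**Figure D2:**
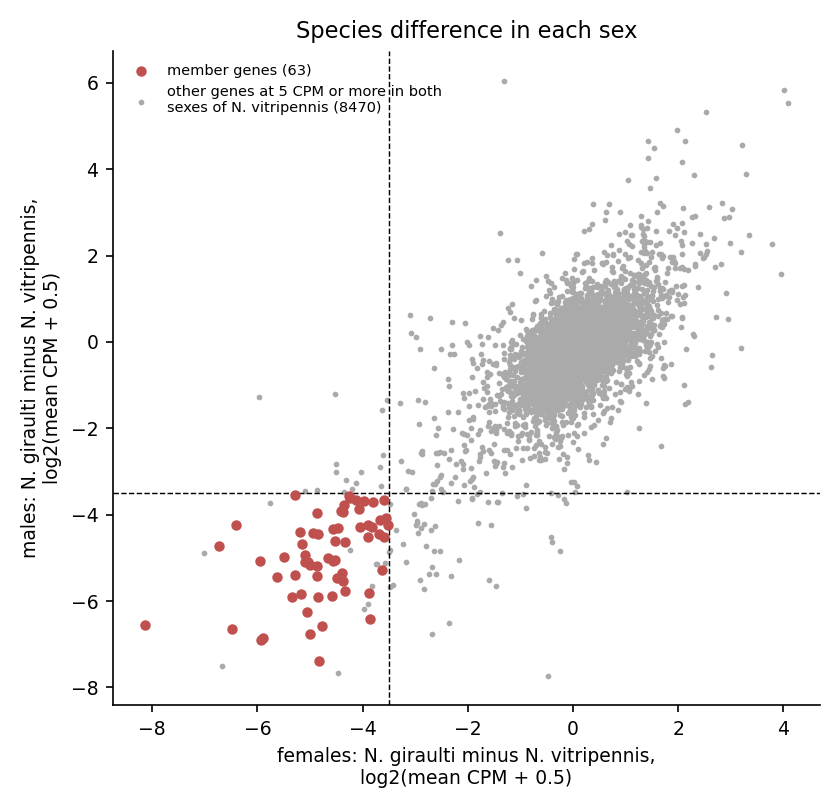
Difference of N. giraulti minus N. vitripennis on the log2(mean CPM + 0.5) scale in females (horizontal axis) and males (vertical axis) for the 8533 genes that reached 5 CPM in N. vitripennis females and males. Members are red, the other 8470 genes are grey, and dashed lines mark the threshold of 3.5 units; most genes lie near 0, and grey points run up to the dashed lines.

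The same rule with the species exchanged, applied to the 8623 genes that reached 5 CPM in N. giraulti females and males, found 33 genes, fewer than the 63. The summed level of these 33 averaged 1385 CPM ± 306 (SD, n = 3) in N. giraulti females and 48.1 CPM ± 13.6 in N. vitripennis females, and in males 1982 CPM ± 463 in N. giraulti and 38.5 CPM ± 3.83 in N. vitripennis. The table may not hold genes that N. giraulti alone carries, so the 2 counts need not be even.

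By the naming rule, the members with the most reads in N. vitripennis were Nasvi2EG010974 and Nasvi2EG016108. Nasvi2EG010974 stood at 1.31, 7.98 and 5.55 CPM in N. giraulti females and at 3.11, 1.25 and 1.47 CPM in N. giraulti males. It stood at 71.0, 159 and 230 CPM in N. vitripennis females and at 329, 413 and 473 CPM in N. vitripennis males. It was low in all N. giraulti libraries and lower on average in their males, where 0.479% of the N. vitripennis male mean was left, against 3.22% in females. The N. giraulti libraries of the sexes overlapped, and their difference was not called (edgeR adjusted p = 0.175).

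Nasvi2EG016108 was the least depleted member in females and stood close to the threshold. It stood at 13.5, 24.3 and 13.3 CPM in N. giraulti females, against 350, 74.8 and 193 CPM in N. vitripennis females. In males it stood at 17.7, 10.995 and 13.4 CPM in N. giraulti, against 331, 291 and 113 CPM in N. vitripennis. The species did not overlap in either sex, and 8.28% of the N. vitripennis mean was left in females and 5.73% in males. This gene was thus still read in every N. giraulti library, at 10.995 CPM or more.

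The only member with 0 reads in all 6 N. giraulti libraries was Nasvi2EG021290. It stood at 3.18, 5.34 and 11.96 CPM in N. vitripennis females and at 18.9, 33.0 and 30.8 CPM in N. vitripennis males. Taking 3 counts over the 3 libraries of a group as its upper limit, it was at least 222-fold lower in N. giraulti females and at least 832-fold lower in N. giraulti males. Floors and intervals of this kind cover counting error only.

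**Figure D3:**
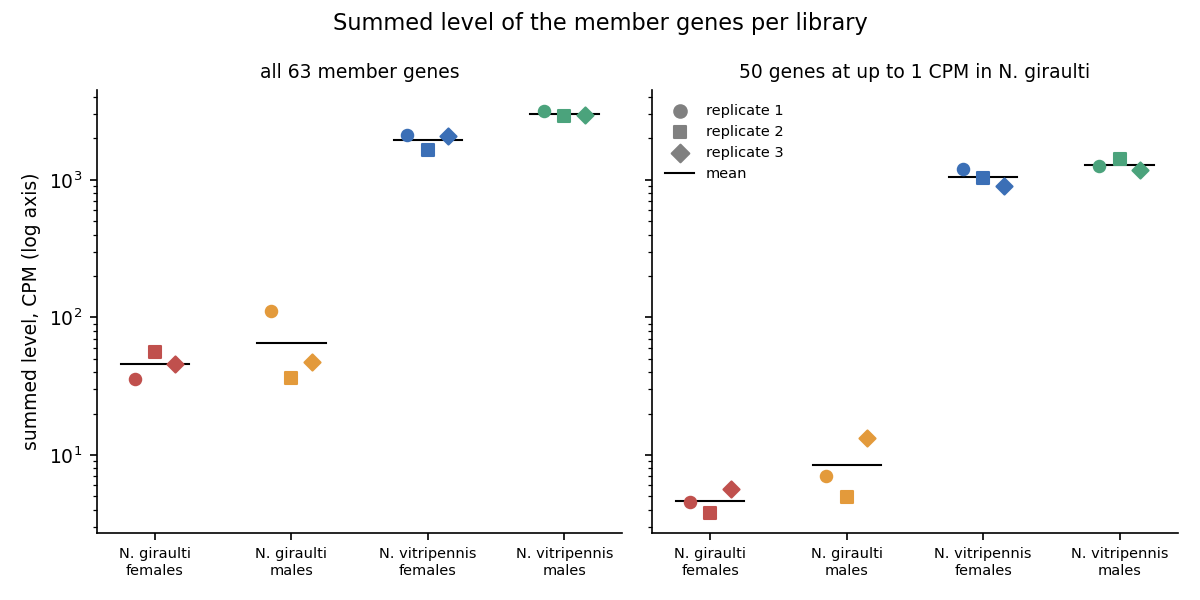
Summed level in CPM (log axis) per library, for all 63 members (left) and for the 50 members at no more than 1 CPM in both N. giraulti sexes (right). Points are libraries with a marker for each replicate number and lines are group means of 3; the N. giraulti male library numbered 1 stands at 110.8 CPM on the left, and the one numbered 3 stands at 13.2 CPM on the right.

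The 50 members at no more than 1 CPM in N. giraulti had residual reads that were unevenly spread over the libraries. Their summed level was 4.56, 3.81 and 5.61 CPM in N. giraulti females and 7.09, 4.95 and 13.2 CPM in their males, against 1195, 1032 and 897 CPM in N. vitripennis females and 1258, 1419 and 1185 CPM in N. vitripennis males. The N. giraulti male library numbered 3 was the highest of its species, although its total count was the lowest of its species. Only 4 members had 0 reads there, against 7 to 22 in the other N. giraulti libraries. Over all members, including those above 1 CPM, the median share of the N. vitripennis level was 1.01% in that library. It was 0.300% to 0.530% in the other 5, and this median was not taken over the 50 alone.

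The difference between N. giraulti males and females was not used by the rule and was tested, although the rule capped both levels. Of the 63 members, 15 were higher in N. giraulti males (23.8%, beside 30% of all genes tested) and 2 were lower (3.17%, beside 26.9% of all genes tested), with a Benjamini-Hochberg adjusted p under 0.05 in edgeR's quasi-likelihood test (n = 3 per sex). Members passed the filter on low counts through their N. vitripennis level, most had few reads in N. giraulti, and nothing is read from their shares against those of all genes. By mean CPM, 50 members were higher in N. giraulti males, 12 were lower and 1 was at 0 in both. Without the male library numbered 3 these counts were 37 higher and 25 lower. Every N. giraulti male library lay above every N. giraulti female library for 8 members (12.7%, beside 26.3% of all genes tested) and below for 4 (6.35%, beside 34.9%).

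Most of these calls rested on few reads. Of the 15 members higher in males, 5 reached a mean of 1 CPM in either sex. The other 10 had 4 to 115 reads in all N. giraulti libraries, and 7 of these 10 were highest in the male library numbered 3. Without that library 10 members were called higher (15.9%, beside 24.2% of all genes tested), 9 of them among the 15. Fitted and filtered on the N. giraulti libraries alone, 18 members had enough reads to be tested. Of these 18, 5 were called higher (27.8%, beside 29.6% of all genes tested there), all among the 15, and 2 were called lower (11.1%, beside 30.8%).

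Nasvi2EG002048 and Nasvi2EG027375 had the highest male excess among called members at 1 CPM or more. Nasvi2EG002048 stood at 1.36, 1.28 and 1.66 CPM in N. giraulti males and at 0.512, 0.524 and 0.515 CPM in N. giraulti females, a log2 fold change of 1.75 (SE 0.47, edgeR adjusted p = 0.00699). In N. vitripennis it stood at 81.2, 28.4 and 37.3 CPM in males and at 20.1, 37.04 and 49.6 CPM in females, where the sexes overlapped. Nasvi2EG027375 stood at 5.58, 5.19 and 6.27 CPM in N. giraulti males and at 2.997, 1.85 and 2.06 CPM in N. giraulti females, a log2 fold change of 1.59 (SE 0.25, edgeR adjusted p = 0.000158). Its sexes were also apart in N. vitripennis, with 251, 190 and 189 CPM in males and 122, 76.7 and 75.02 CPM in females. The sex order of this gene was thus the same at both levels of expression.

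Nasvi2EG005899 and Nasvi2EG019435 were the 2 members lower in N. giraulti males, and Nasvi2EG019435, under 1 CPM in both sexes, was named after its values were seen. Nasvi2EG005899 stood at 0.556, 0.668 and 0.566 CPM in N. giraulti males and at 1.28, 2.37 and 4.49 CPM in N. giraulti females, a log2 fold change of -1.89 (SE 0.73, edgeR adjusted p = 0.0450). This call was lost without any single N. giraulti male library and without the N. giraulti female library numbered 2 or 3, at adjusted p-values from 0.0699 to 0.169, and also without N. vitripennis male library 1 (0.0577). The same edgeR test also lost the call with no filter on low counts (0.0734) and with the libraries numbered 2 and 3 alone (0.155). In N. vitripennis its libraries overlapped between the sexes, at 131, 45.5 and 179 CPM in males and 58.4, 54.2 and 195 CPM in females. Nasvi2EG019435 stood at 0.0758, 0.0607 and 0.151 CPM in N. giraulti males and at 0.307, 0.524 and 0.372 CPM in N. giraulti females, a log2 fold change of -1.78 (SE 0.49, edgeR adjusted p = 0.00747).

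**Figure D4:**
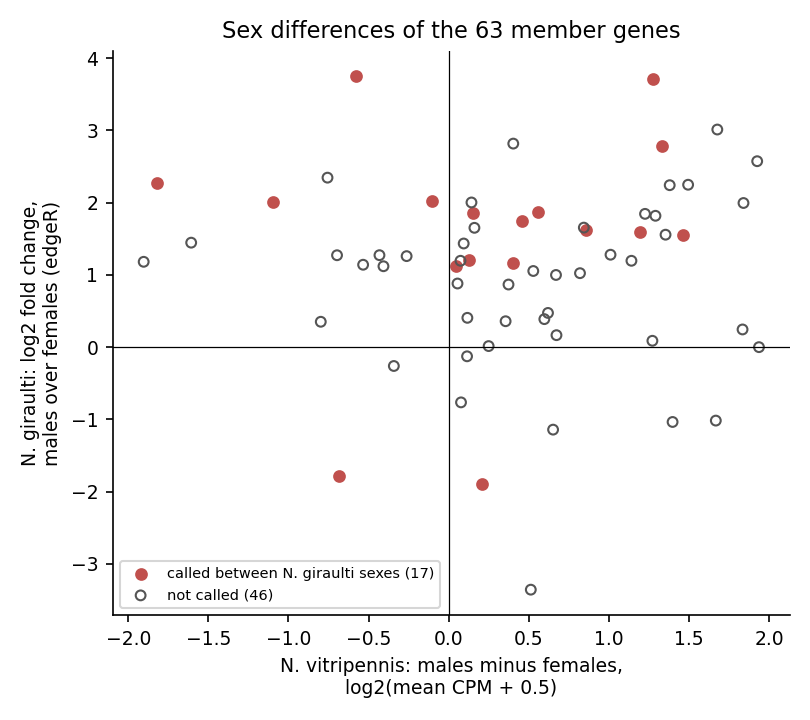
Sex difference of the 63 members in N. vitripennis (horizontal axis, males minus females, log2(mean CPM + 0.5), limited by the rule to less than 2 units) and in N. giraulti (vertical axis, fitted log2 fold change of males over females). Filled points are the 17 members called between the N. giraulti sexes; 53 of the 63 points lie above 0 on the vertical axis.

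Within N. vitripennis the members leaned toward males. The rule capped the size of this difference, so it is given as a description. By mean level 48 members (76.2%) were higher in N. vitripennis males and 15 were lower, whereas of the 7047 genes within the same level and cap 44.9% were higher in males. The median difference of males minus females was 0.40 log2 units over the members and -0.17 over those 7047 genes. With CPM scaled by trimmed means (TMM) the shares were 69.8% and 41.5%. Every N. vitripennis male library lay above every female library for 18 members (28.6%, beside 37.2% of all genes tested and 26.7% of the 7047), and below for 6 (9.52%, beside 31.6% and 36.8%). By this measure the members differed from the 7047 genes mainly in the smaller share lower in males. Whole bodies were measured, so more cells of a type and more RNA per cell cannot be told apart in either sex.

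Nasvi2EG021290, given above, and Nasvi2EG025774 leaned most toward N. vitripennis males, by 1.94 and 1.93 log2 units. Nasvi2EG025774 holds fractional counts, taken here as reads shared with another row of the table, and is uncertain for that reason. It stood at 20.9, 28.3 and 22.9 CPM in N. vitripennis males and at 6.20, 7.19 and 4.46 CPM in N. vitripennis females. In N. giraulti it had about 12.5 reads in the 6 libraries together, none of its libraries exceeding 0.357 CPM. The sexes of N. vitripennis were well apart for both genes.

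The members that leaned most toward N. vitripennis females were Nasvi2EG036379 and Nasvi2EG016883, at -1.90 and -1.82 log2 units of males minus females. Nasvi2EG036379 stood at 16.6, 15.7 and 12.9 CPM in N. vitripennis males and at 80.9, 55.0 and 37.5 CPM in N. vitripennis females. Nasvi2EG016883 stood at 14.2, 13.0 and 10.3 CPM in N. vitripennis males and at 56.2, 42.0 and 38.3 CPM in N. vitripennis females. In N. giraulti, Nasvi2EG016883 had 25 reads in all libraries, with 0.278, 0.213 and 0.0755 CPM in males and 0.0512, 0 and 0.0858 CPM in females, which overlapped. The naming rule did not choose it for the N. giraulti sexes. It was called higher in N. giraulti males (log2 fold change 2.28, SE 0.65, edgeR adjusted p = 0.00939). With so few reads, and the filter passed through its N. vitripennis level, nothing is read from this call. Over the alternatives its adjusted p ran from 0.00457 to 0.0814.

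Replicate libraries of the members varied somewhat more than those of comparable genes. The median coefficient of variation was 30.4% over the members in N. vitripennis females, beside 23.6% over the 8533 genes, and 19.9% beside 17.6% in N. vitripennis males. The members had fewer reads, with a median N. vitripennis mean of 21.9 CPM beside 49.3 CPM over the 8533 genes. The comparison was not matched for level. The largest value was 92.9%, for Nasvi2EG006310 in N. vitripennis females. The libraries numbered 1 differed from those numbered 2 and 3 in many genes. In a fit with group and replicate number, 11 members (17.5%) were higher in the libraries numbered 1, beside 21.4% of all genes tested, and 5 (7.94%) were lower, beside 16.5%. With the N. vitripennis libraries alone, in which the members are well read, 14 members (22.2%) were higher, beside 14.2% of all genes tested, and 6 (9.52%) were lower, beside 12.9%. The order of the members' share and that of all genes thus turned round for the higher calls. Without the N. vitripennis female library numbered 1, 5 members (7.94%) were called higher, beside 15.8% of all genes tested. Without that numbered 3, 6 (9.52%) were, beside 17.8%. Without any 1 library other than the N. vitripennis male and the N. giraulti female library numbered 3, 0 to 3 members were called lower. These were 0% to 4.76% of the members, beside 12.7% to 14.8% of all genes tested.

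Nasvi2EG009774 and Nasvi2EG008723 had the largest excess in the libraries numbered 1, with log2 fold changes of 1.43 (SE 0.20, edgeR adjusted p = 0.000478) and 1.32 (SE 0.26, edgeR adjusted p = 0.00387). Nasvi2EG009774 stood at 48.9, 18.4 and 16.7 CPM in N. vitripennis females numbered 1 to 3 and at 47.7, 18.4 and 23.5 CPM in N. vitripennis males. Its residual level in N. giraulti had the same order, with 0.640, 0.216 and 0.429 CPM in females and 1.82, 0.638 and 0.302 CPM in males, in that library 1 was the highest of each group. Nasvi2EG032502 and Nasvi2EG028056 were lowest in those libraries, with log2 fold changes of -1.39 (SE 0.45, edgeR adjusted p = 0.0302) and -1.35 (SE 0.37, edgeR adjusted p = 0.0137). Nasvi2EG028056 holds fractional counts, taken here as reads shared with another row, and is uncertain. The call of Nasvi2EG032502 was lost without the N. vitripennis female library numbered 1 or 2, the N. vitripennis male library numbered 1 or 2, the N. giraulti female library numbered 2 or the N. giraulti male library numbered 1, at adjusted p-values from 0.0538 to 0.118. That of Nasvi2EG028056 was lost without the library numbered 1 of the N. vitripennis females (0.0698) or males (0.0819).

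Some members lay next to each other in the numbering of the identifiers. Of the 63, 18 (28.6%) had an identifier number next to that of another member, in 9 pairs. With steps of up to 3 numbers, 22 members (34.9%) fell into 10 runs of 2 or 3 genes. Of the 33 genes found by the exchanged rule, 2 (6.06%) had such a partner. A longer list holds more adjacent numbers by its size alone, and these shares were not adjusted for size. The files give no genome position, and whether adjacent numbers are adjacent genes is not stated in the sources used here.

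Levels differed within the runs. In a run of 3 members within 4 consecutive numbers, the means over the N. vitripennis libraries ran from 14.7 to 23.02 CPM and those over the N. giraulti libraries from 0.0460 to 0.215 CPM. In another pair the N. vitripennis means were 13.5 and 225 CPM and the N. giraulti means 0.114 and 15.5 CPM. Sex differences within N. vitripennis could also part the genes of a pair, as in a pair with differences of males minus females of -1.61 and 0.13 log2 units, both of which hold fractional counts.

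Fractional counts were found in 8 members (12.7%), beside 18.1% of the 8533 genes. They are taken here as reads divided between rows of the table, which the sources used here do not state. In 1 pair the sharing rows were both members. For 4 others the partner was a gene outside the set, and for 2 none was found among the adjacent rows.

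Genes next to a member in the numbering, which the rule did not choose, were then examined. There were 74 such genes, of which 58 passed the filter on low counts. In N. giraulti females 27 of the 58 were lower than in N. vitripennis females (46.6%, beside 18.4% of all genes tested) and 4 were higher (6.90%, beside 12.5%). In N. giraulti males 29 were lower than in N. vitripennis males (50%, beside 16.6%) and 6 were higher (10.3%, beside 15%). These are calls of edgeR's quasi-likelihood test at a Benjamini-Hochberg adjusted p under 0.05. Of the 58, 21 reached 5 CPM in both N. vitripennis sexes. A neighbour that passed the filter only through its N. vitripennis level had to differ. The counts for each sex were not made at a fixed level, so nothing is read from their shares.

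Both contrasts called 24 of the 58 neighbours lower in N. giraulti (41.4%, beside 9.99% of all genes tested), and 2 higher (3.45%, beside 7.89%). Counting the calls made in both sexes was not planned. Over all 58 the median log2 fold change was -0.80 in females and -1.08 in males, beside -0.20 and -0.01 over all genes tested. The 24 called genes had medians of -5.87 in females and -5.05 in males, which their selection as called favours, and 15 of the 58 were at least 10-fold lower in both sexes (25.9%, beside 3.52%). Leaving out the neighbours with fractional counts gave 21 of 50 (42%). A neighbour that passed the filter only through its N. vitripennis level had to differ, so the count is also given at a fixed level. Of the 21 neighbours at 5 CPM or more in both N. vitripennis sexes, 6 were lower in both (28.6%), beside 6.23% of the 8533 genes at that level. Neighbours with fractional counts were not left out of these 21.

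By distance in the numbering, the share among all genes tested was 41.4% at a distance of 1, 27.8% at 2, 19.6% at 3, 22.7% at 4 and 13.5% at 5. From 6 to 8 it lay between 8.57% and 13.3%, beside the 9.99% of all genes tested, and at 9 and 10 it was 18.4% and 20%. These shares include genes that passed the filter through their N. vitripennis level only. Among genes at 5 CPM or more in both N. vitripennis sexes it was 6 of 21 (28.6%) at a distance of 1 and 2 of 16 (12.5%) at 2, beside 6.23% of all genes at that level. From 3 to 10 it was 0 to 2 genes of 13 to 25 at each distance. With so few genes at each distance, no trend beyond the nearest number is read from them.

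Around the 33 genes of the exchanged rule, 11 of 32 tested neighbours were higher in N. giraulti in both sexes (34.4%, beside 7.89%) and 2 were lower (6.25%, beside 9.99%). This count was not planned either. With whole counts alone 7 of 24 were higher (29.2%). Of the 11 neighbours at 5 CPM or more in both N. giraulti sexes, 2 were higher in both (18.2%), beside 5.55% of the 8623 genes at that level.

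**Figure D5:**
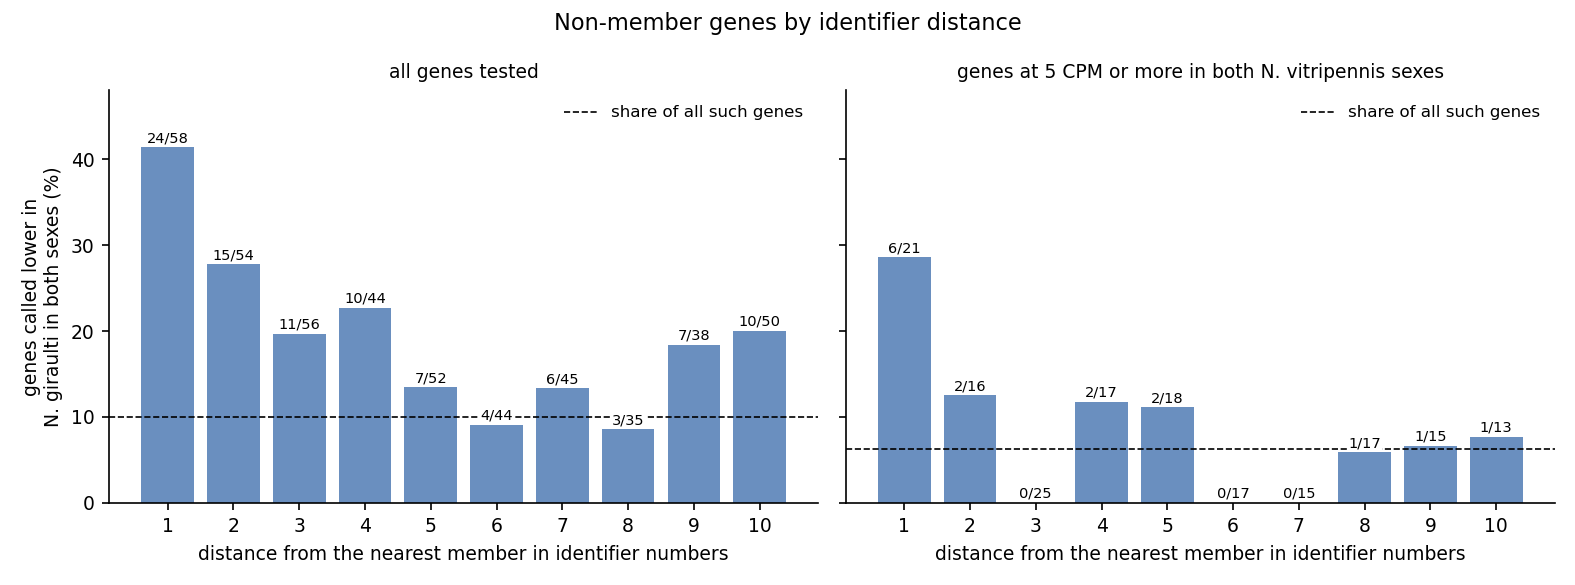
Percent of non-member genes called lower in N. giraulti in both sexes, by the distance of their identifier number from the nearest member, for all genes tested (left) and for genes at 5 CPM or more in both N. vitripennis sexes (right); bars start at 0 and carry the count called over the count tested. Dashed lines are the shares of all such genes, 9.99% and 6.23%, and the bars at distance 1 stand at 41.4% on the left and 28.6% on the right.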

How the data were processed

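RNA of 12 libraries was prepared with a TruSeq version 2 kit from 2 ug of total RNA, per the labels. The authors deposited estimated counts per gene in a single table, not scaled to library size; 3372 genes (13.9%) hold fractional values. The submitters' processing notes list, without roles, TopHat2 2.0, HTSeq, Cufflinks 2.1.0, Trimmomatic, edgeR, bedtools, FastQC and CASAVA 1.8.2. Of the identifiers, 0 matched the table of 15501 RefSeq genes used here (assembly of strain AsymCx).

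The members and lists were chosen with earlier results of these data known. Counts were rounded, filtered by group with filterByExpr (minimum count 10, leaving 16536 genes), scaled by trimmed means (TMM) and fitted over all 12 libraries with edgeR 4.0.16 quasi-likelihood (robust; R 4.3.3), with p-values adjusted by Benjamini and Hochberg over all genes. The standard error is the log2 fold change over the square root of F. Levels are CPM by the column sum. The code was tested on simulated counts. The text names no more than 2 identifiers in each direction: the 2 members with the most CPM in N. vitripennis, the 2 most extreme in each direction between N. vitripennis sexes, and the 2 most extreme called in each direction between N. giraulti sexes (at 1 CPM or more) and between replicate numbers. Identifier neighbours are genes whose number differs by 1 from a member's.

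Replicates differed by more than sampling noise (chi-square per degree of freedom 40.06 to 271). Replicate numbers recur in all groups: deviations from group means correlated at 0.20 to 0.708 in all 18 pairs with the same number and at -0.57 to 0.32 in the 36 others, so the pairing comes from the data, not from the labels. Whether replicates came from separate cultures is stated only as independent batches. Alternatives were other scalings, no filter, the Wald test of DESeq2 1.42.0 and the replicate number as a block. Others were fewer groups, each library left out and other thresholds of the rule. The libraries numbered 2 and 3 alone and neighbours at a fixed level were added after seeing the data. The counts of neighbours called in both sexes, around the members and around the exchanged set, were not planned either.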

Additional observations from a re-analysis of the deposited data

Results flagged for a closer look

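A single member had the sexes in opposite order in the 2 species, with no overlap in either. Nasvi2EG009872 stood at 0.833, 0.729 and 0.113 CPM in N. giraulti males and at 0.948, 2.28 and 1.12 CPM in N. giraulti females, so that every male library was below every female library. In N. vitripennis it stood at 80.4, 75.2 and 114 CPM in males and at 11.9, 14.3 and 57.6 CPM in females, so that every male library was above. The sex difference of N. giraulti minus that of N. vitripennis was -2.55 log2 units on the log2(mean CPM + 0.5) scale. This difference was not tested, because it is made of the contrasts that chose the gene, and the sex difference within N. giraulti did not pass the threshold (edgeR adjusted p = 0.259).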

How the results depend on the processing

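The set was sensitive to its thresholds. The rule gave 40 genes with a pseudocount of 1 CPM and 40 with a difference of at least 4 log2 units, against 63. The exchanged rule gave 20 with a pseudocount of 1 CPM, 52 at 3 log2 units and 19 at 4, against 33. Leaving out 1 library in turn gave 60 to 66 genes by the rule, with 45 members found in all 12 of these sets, and 29 to 37 by the exchanged rule. The libraries numbered 2 and 3 alone gave 66 genes, 55 of them members.

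Between the N. giraulti sexes, 15 members were higher in males (23.8%, beside 30% of all genes tested). With the N. giraulti libraries alone in the fit, 5 of the 18 tested were (27.8%, beside 29.6%). Without 1 library 10 to 21 were (15.9% to 33.3%, beside 23.1% to 30.4%). Those lower in males numbered 2 (3.17%, beside 26.9%), and 1 with no filter on low counts (1.59%, beside 19.2%). Without 1 library 1 to 3 were lower (1.59% to 4.76%, beside 23.5% to 27.4%). A fit with a replicate block called 20 higher (31.7%, beside 38.1% of all genes tested) and 3 lower (4.76%, beside 31.2%). The block changed no call among the genes named for these sexes.

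Neighbours lower in N. giraulti numbered 25 to 29 in females, 27 to 31 in males and 22 to 26 in both without 1 library; with the replicate block they were 28 (48.3%, beside 30.4% of all genes tested), 30 (51.7%, beside 23.5%) and 26 (44.8%, beside 15.2%), against backgrounds of 18.4%, 16.6% and 9.99% without it. Within 2 identifiers, of 112 genes tested, there were 50 in females (44.6%, beside 18.4% of all genes tested) and 46 in males (41.1%, beside 16.6%). These counts for each sex were not made at a fixed level. At 5 CPM or more in both N. vitripennis sexes, 2 of 16 genes at a distance of 2 were lower in both (12.5%, beside 6.23%). Neighbours of the exchanged set higher in both sexes numbered 10 to 12 without 1 library. With all libraries they were 11 of 32 (34.4%, beside 7.89% of all genes tested), and with whole counts alone 7 of 24 (29.2%). With a minimum of 5 CPM in each sex of the higher species, 6 of 21 neighbours of the members were called in both contrasts (28.6%, beside 6.23%). Of the exchanged set 2 of 11 were (18.2%, beside 5.55%). Without this minimum the shares were higher, at 41.4% and 34.4%. For the libraries numbered 1, 5 to 12 members were higher without 1 library (7.94% to 19.05%, beside 15.8% to 20.9% of all genes tested). Those lower there numbered 0 to 5 without 1 library (0% to 7.94%, beside 12.7% to 15.5%).

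At this depth a count of 0 in a single library allowed a level of up to 0.0758 to 0.113 CPM in N. giraulti. In N. vitripennis it allowed up to 0.0584 to 0.126 CPM.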
